A study of Mus musculus with 2 samples.

Results

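The mouse miR-29 family is encoded by 4 microRNA (miRNA) genes that lie in 2 clusters, Mir29b-1 with Mir29a on chromosome 6 and Mir29b-2 with Mir29c on chromosome 1. They were taken by name, as the rows whose Ensembl identifiers carry these names in GENCODE M21, and they are 4 of the 2202 miRNA genes counted. The series measured miRNAs in total RNA from the left cerebral cortex, the outer layer of the left forebrain, by sequencing RNA below 30 nucleotides. Its 1 group held B6CASTF1/J males aged 2 months, first-generation hybrids of the inbred C57BL/6J and CAST/EiJ strains, with no treatment or engineered allele in the labels. Library 1 came from male 3 (replicate 1) and library 2 from male 4 (replicate 2). The labels give the 2 samples 1 common donor identifier, so only the animal and replicate numbers set them apart as separate mice. All p-values therefore compare these 2 libraries only, and a difference between them may be technical. With 1 group there was no comparison of conditions, and every SD below is over n = 2 libraries.

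MicroRNAs are cut from hairpin transcripts, and the strand that is loaded into Argonaute pairs with target messenger RNAs mainly through its seed, the short stretch near its 5′ end. The miR-29 family is known for repressing the de novo DNA methyltransferases, collagens, elastin and other matrix genes, and pro-apoptotic BH3-only genes in mature neurons. In brain it is known to rise as the tissue matures and to be strong in astrocytes. The 3′ end of miR-29b is known for a short motif that directs the miRNA to the nucleus.

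The 3p strands are the main products of all 4 hairpins, and they are shown because the bases in which they differ bear on the gene to which a read is assigned. They are the RefSeq sequences on GRCm38.p6 (mm10), 5′ to 3′, with the seed (bases 2 to 8) in capitals. In RefSeq all 4 hairpins had mature entries, 8 in all, with 7 distinct sequences.
miR-29a-3p: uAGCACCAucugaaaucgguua
miR-29c-3p: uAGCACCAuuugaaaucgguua
miR-29b-3p: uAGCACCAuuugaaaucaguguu
All 3 shared the seed AGCACCA, and among 1738 mature entries in the table only the 4 entries of this family carried it. Counted from 1 at the 5′ end, miR-29a-3p and miR-29c-3p differed by C10U alone. From miR-29a-3p to miR-29b-3p the substitutions were C10U, G18A, U21G and A22U over the 22 positions that both have, and miR-29b-3p has 23 bases. From miR-29b-3p to miR-29c-3p they were A18G, G21U and U22A. The motif AGUGUU, read on the given strand, ends miR-29b-3p and occurred in 14 of the 1738 entries (0.806%). Apart from both miR-29b entries, 1 entry ended with it, that of miR-92b-5p.

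The 3p strand of miR-29b is the same in both Mir29b hairpins, whereas each other mature sequence of the family occurred in 1 annotated hairpin. The 5p strands, the usual minor products, differ in all 4 hairpins and are shown for that reason, with bases 2 to 8 in capitals.
miR-29a-5p: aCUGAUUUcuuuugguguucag
miR-29b-1-5p: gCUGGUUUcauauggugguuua
miR-29b-2-5p: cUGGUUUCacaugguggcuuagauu
miR-29c-5p: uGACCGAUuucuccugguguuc
No seed was shared among these 4. The longest stretch shared by the miR-29b 5p strands was 9 bases, of 22 and 25. A read of the whole miR-29b-3p therefore matches both Mir29b genes equally, and a read of their 5p strands does not. The deposited counts are per hairpin, so the strand behind a read is not known.

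The chromosome 6 cluster lies on the minus strand and spans 434 bases, from 31062660 to 31063093 (mm10), with Mir29b-1 first in the direction of transcription and 275 bases between the hairpins. Mir29a (ENSMUSG00000065610.1) occupies chr6:31062660-31062747 and overlaps no other annotated gene. Mir29b-1 (ENSMUSG00000065604.2) occupies chr6:31063023-31063093 and overlaps the first exon of the lincRNA Gm27019 by 2 bases on the same strand. Both hairpins are shown with their mature strands in capitals, because this cluster gave the wider gap in reads between its genes.
Mir29b-1 hairpin: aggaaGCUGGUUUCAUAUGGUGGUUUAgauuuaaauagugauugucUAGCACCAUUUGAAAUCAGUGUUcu
Mir29a hairpin: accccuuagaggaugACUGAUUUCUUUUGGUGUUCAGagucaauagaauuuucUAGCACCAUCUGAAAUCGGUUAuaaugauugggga
The chromosome 1 cluster lies on the plus strand and spans 595 bases, from 195037040 to 195037634, with 426 bases between the hairpins. Mir29b-2 (ENSMUSG00000065412.3) occupies chr1:195037040-195037120 and Mir29c (ENSMUSG00000065548.1) occupies chr1:195037547-195037634. Both lie wholly within exon 3 of the noncoding transcript A330023F24Rik-204 on the same strand. They also lie opposite exon 11 of a transcript of Cd46, a complement regulator, in its untranslated part. No antisense read was counted at any of the 4 genes in either library.

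**Figure D1:**
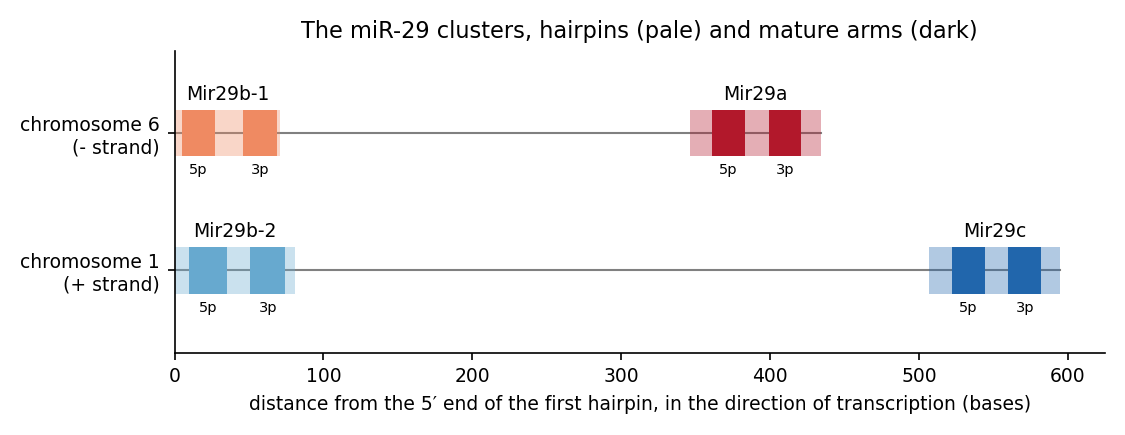
The miR-29 clusters drawn to scale, with the distance in bases from the 5′ end of the first hairpin in the direction of transcription on the x axis, hairpins in pale and mature strands in dark colours. In both clusters the Mir29b hairpin comes first, 275 bases before Mir29a and 426 bases before Mir29c.

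The hairpins paired differently by sequence than by position. Mir29a and Mir29c, on different chromosomes, were 78.0% identical over their alignment, and Mir29b-1 and Mir29b-2 were 73.2% identical. The other 4 pairs, both within-cluster pairs included, lay between 55.9% and 62.8%. The longest shared stretch was 25 bases between the Mir29b hairpins and held the whole of miR-29b-3p. Mir29c shared 22 bases with Mir29b-1 and 19 with Mir29b-2, but no whole mature sequence. The GC content was 38.6% for Mir29a, 35.2% for Mir29b-1, 39.5% for Mir29b-2 and 44.3% for Mir29c, all below the median of 52.3% over the detected hairpins. Predicted folding energies per base lay from -0.40 to -0.37 kcal/mol, close to the median of -0.43.

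All 4 genes were detected, with 10 or more reads in each library, as were 406 of the 2202 genes. Library 1 held 11372894 reads and library 2 held 12980686, of which 3827158 and 4553291 were counted on the sense strand of miRNA genes. Levels are given as CPM, counts per 1000000 of those sense-strand reads, so 1 read was worth 0.261 and 0.220 CPM. The miRNA genes associated with neurons took 7.77% and 5.25% of the sense-strand reads, with 9 of 12 detected, and those of oligodendrocytes 0.498% and 0.347%. The Mir9 and Mir124a copies in the neuron list had mean levels from 0.894 CPM (Mir124a-3) to 56.7 CPM (Mir9-3). In this layout of counts a read that maps to several places is given to no gene, so the shares of all lists leave such reads out. The list for vessels took 1.44% and 1.86%, that for microglia and leukocytes 0.216% and 0.175% with Mir142b at 0, choroid plexus 0.0718% and 0.0722%, and red blood cells 0.0134% and 0.155%. No list of defining astrocyte markers was used, and other miRNA genes associated with astrocytes are described at the end.

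The 4 genes together held 54889 reads in library 1 and 44896 in library 2. That was 1.43% (exact 95% interval 1.422 to 1.446%) and 0.986% (0.977 to 0.9951%) of the sense-strand reads. Intervals here cover counting error only. In such bulk tissue, fewer cells of a type and less RNA per cell cannot be told apart.

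Mir29a was the most abundant member, with 48018 and 39628 reads in libraries 1 and 2. These were 12547 CPM (12435 to 12659) and 8703 CPM (8618 to 8789), with a mean of 10625 ± 2718 CPM. It ranked 18 among all genes by mean level, 14 in library 1 and 22 in library 2. Mir29c, which differs from it by C10U in the 3p strand, had 6151 and 4652 reads, or 1607 CPM (1567 to 1648) and 1022 CPM (993 to 1051). Its mean was 1314 ± 414 CPM, at rank 81. Mir29a was thus 7.81-fold (7.60 to 8.02) above Mir29c in library 1 and 8.52-fold (8.26 to 8.78) in library 2, the steadiest of the 4 ratios between single members.

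The Mir29b genes were the low members of both clusters. Mir29b-2 had 402 and 426 reads, or 105 CPM (95 to 116) and 93.6 CPM (84.9 to 103), with a mean of 99.3 ± 8.12 CPM at rank 200. Mir29b-1 had 318 and 190 reads, or 83.1 CPM (74.2 to 92.7) and 41.7 CPM (36.0 to 48.1), with a mean of 62.4 ± 29.2 CPM at rank 218. Mir29b-2 stood close to the median of the detected genes, 95.6 CPM, and Mir29b-1 was below it in both libraries.

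The order Mir29a, Mir29c, Mir29b-2, Mir29b-1 held in both libraries, and no member's values overlapped those of the next. The closest were Mir29b-2 in library 2 and Mir29b-1 in library 1, whose 95% intervals overlap. A sequenced fragment of this size spans a mature strand, so CPM was not divided by length. Per base of hairpin the mean levels were 121 CPM for Mir29a, 14.9 for Mir29c, 1.23 for Mir29b-2 and 0.879 for Mir29b-1, and this order too held in both libraries. Of the family's reads, Mir29a took 87.5% and 88.3%, Mir29c 11.2% and 10.4%, Mir29b-2 0.732% and 0.949%, and Mir29b-1 0.579% and 0.423%. Both Mir29b genes together gave 720 and 616 reads, 1.31% and 1.37% of the family.

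**Figure D2:**
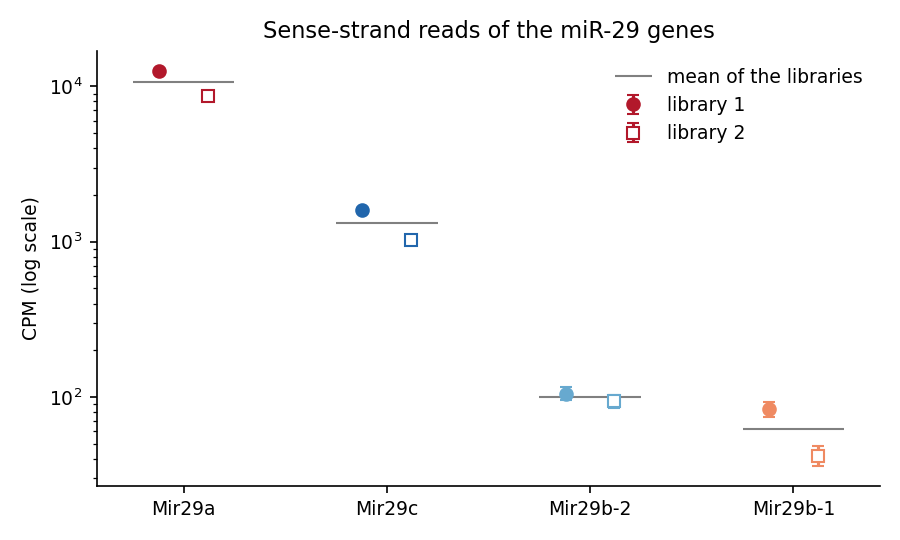
Level of each miR-29 gene in CPM on a log scale, with filled circles for library 1, open squares for library 2, bars for the exact 95% interval of counting error and lines for the mean of both libraries. The values fall without overlap from Mir29a at 12547 and 8703 CPM to Mir29b-1 at 83.1 and 41.7 CPM, although the intervals of Mir29b-2 in library 2 and Mir29b-1 in library 1 overlap.

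Within each cluster the genes were far from equal. On chromosome 6, Mir29a had 151 reads for each read of Mir29b-1 in library 1 (135 to 169) and 209 in library 2 (181 to 242), a mean ratio of 180 ± 40.7. On chromosome 1, Mir29c had 15.3 reads per read of Mir29b-2 (13.8 to 17.0) and 10.9 (9.89 to 12.1), a mean of 13.1 ± 3.10. The inequality was thus larger on chromosome 6 in both libraries, and the ranges of the 2 ratios were far apart. Between libraries these ratios differed in opposite directions, by 1.38-fold and 1.40-fold.

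Across clusters, Mir29b-1 had 0.791 reads per read of Mir29b-2 in library 1 (0.681 to 0.919) and 0.446 in library 2 (0.374 to 0.530). These 2 intervals do not overlap, and this 1.77-fold shift was the widest among the ratios. The sums of the clusters were steadier, but their ratio is mostly that of Mir29a over Mir29c. In library 1, Mir29a held 48018 of the 48336 reads of the chromosome 6 cluster, and Mir29c 6151 of the 6553 on chromosome 1. The chromosome 6 cluster had 7.38-fold (7.19 to 7.57) and 7.84-fold (7.62 to 8.08) the reads of the chromosome 1 cluster, a mean of 7.61 ± 0.329.

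**Figure D3:**
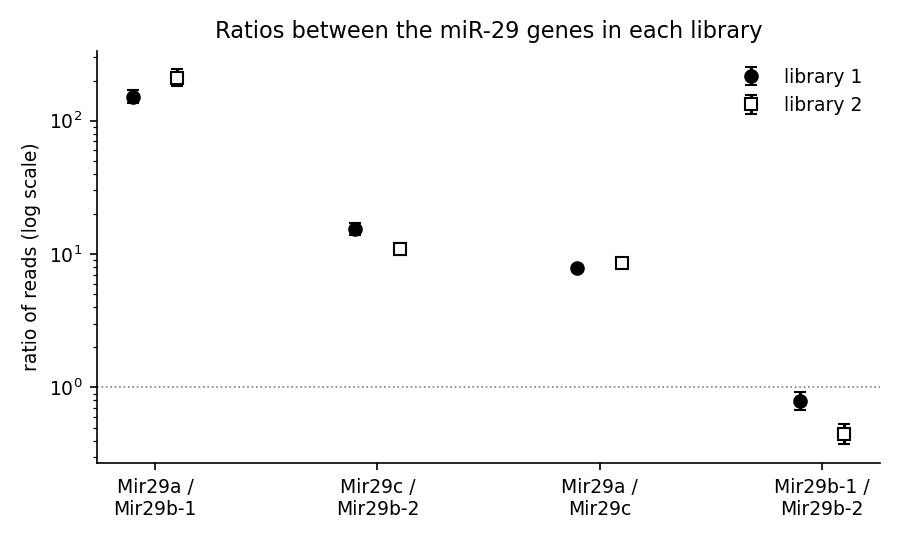
Ratios of reads between miR-29 genes on a log scale, with filled circles for library 1, open squares for library 2, exact 95% intervals of counting error as bars and a dotted line at 1. Mir29a exceeded Mir29b-1 by 151 and 209, whereas the Mir29b genes lay below 1 at 0.791 and 0.446.

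The layout of the counts gives a read that maps to several places to no gene. Such reads numbered 4743316 in library 1 (41.7%) and 5338530 in library 2 (41.1%), which was 6590 and 8670 times the reads counted for both Mir29b genes. How many of them were miR-29b-3p is not known from the counts. Their part in the low values of Mir29b-1 and Mir29b-2 was not tested, and these values are no measure of the amount of miR-29b. The sum for the family carries the same limit.

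The same arrangement, a gene with a shared mature sequence beside a gene with only its own, was looked at over the other clustered miRNA genes. Of 1022 genes with a RefSeq mature sequence, 115 (11.3%) had one that occurs in another annotated hairpin. Over all detected genes with a mature sequence, levels hardly differed by sharing. The median was 112 CPM for the 46 genes that share one and 109 CPM for the others. These genes had 10 or more reads in each library, which the pairs below do not ask of their lower gene, so the sets differ. Pairs on the same strand with at most 10 kb between the genes, and 10 or more reads in the higher gene, numbered 63 over 66 genes. The gene with the shared sequence was the lower one in 51 of them (81.0%), in both libraries, and in 49 of 61 without the miR-29 pairs. The median log2 ratio over the 63 pairs, with 1 CPM added, was 3.99. The count depends on how the pairs are defined. With a common stretch of 20 bases between hairpins in place of an identical mature sequence, it was 86 of 162 pairs (53.1%). The median log2 ratio was then 0.57. That setting also let in genes without a RefSeq mature sequence, 112 genes in all, so both changes enter the lower share. Pairs overlap in their genes, and many of the 63 hold Mir3070a, Mir3070b, Mir450-1 or Mir450-2, so these counts are a description.

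Mir29a over Mir29b-1 had a log2 ratio of 7.39 by mean level, place 11 of the 63 from the top. Mir29c over Mir29b-2 had 3.71, close to the median of all pairs. An example with a like order is miR-24, whose copies Mir24-1 and Mir24-2 share a mature sequence and sit beside different partners. Mir23b was 390-fold above Mir24-1 (53.0 CPM) by mean level, and Mir23a was 162-fold above Mir24-2 (56.3 CPM). Their other partners stood closer, with Mir27b 33.2-fold above Mir24-1 and Mir27a 2.97-fold above Mir24-2. Both Mir24 genes thus had mean levels within the range of values of Mir29b-1. The miR-92a and miR-16 copies, named after their values were seen, did not show gaps as wide as those below Mir23b and Mir23a. Mir92-1 (329 CPM) was above Mir20a (144 CPM) and Mir18 (22.2 CPM), while Mir17 was 1.40-fold above it. Mir92-2 (17.8 CPM) was above Mir20b (7.09 CPM) and Mir106a (2.91 CPM), and Mir15a was only 1.41-fold above Mir16-1. Mir15b was 3.77-fold above Mir16-2 (72.6 CPM), a wider gap than that of Mir27a over Mir24-2.

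**Figure D4:**
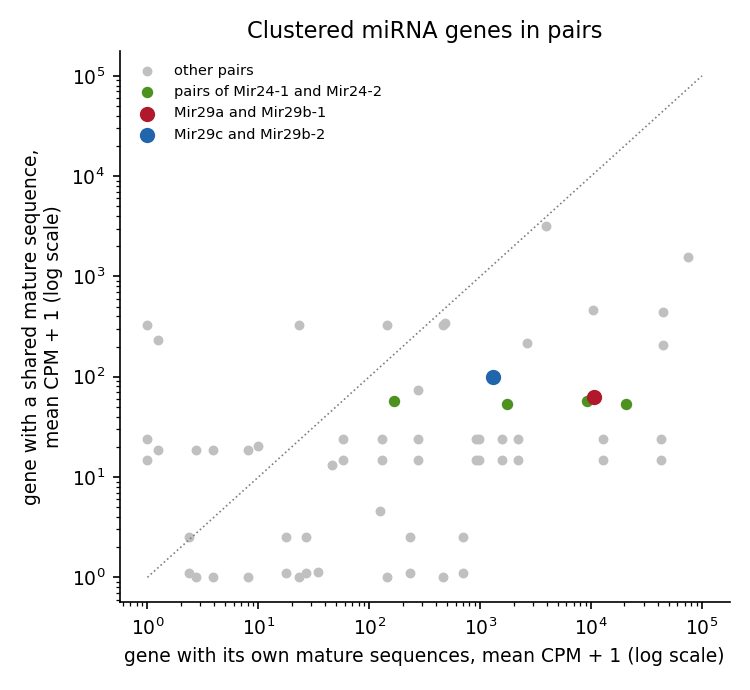
Mean level of each clustered gene with only its own mature sequences (x axis) against that of its neighbour with a shared one (y axis), in CPM + 1 on log scales, for 63 pairs, with equality as a dotted line. The Mir29a and Mir29b-1 pair lies among the Mir24 pairs, and 51 pairs lie below the line.

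Every member was higher in library 1 by value. Mir29a was 1.44-fold higher, a log2 ratio of 0.53 (exact 95% interval 0.51 to 0.55). Mir29c was 1.57-fold higher, at 0.65 (0.60 to 0.71), and Mir29b-1 was 1.99-fold higher, at 0.99 (0.73 to 1.26). For Mir29b-2 the libraries differed by 1.12-fold, at 0.17 (-0.03 to 0.37), an interval that includes 0.

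By a two-sided exact binomial test with counting error alone, adjusted by Benjamini-Hochberg over the 508 genes with 10 or more reads in total, 3 of the 4 members differed between the libraries, all 3 higher in library 1. Of all genes tested 48.4% differed, 25.2% higher in library 1 and 23.2% higher in library 2. Among the 218 genes at or above the level of Mir29b-1 the share was 83.9%, so 3 of 4 lies near the background at these depths. The adjusted exact binomial p was 9.57e-14 for Mir29b-1, 1.23e-120 for Mir29c and 0.173 for Mir29b-2, and that of Mir29a was below the smallest number the computation holds. These p-values compare a pair of libraries, not conditions.

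The spread between the libraries beyond counting error, estimated over all tested genes by edgeR, was a coefficient of variation of 33.3%. It was estimated from the same 2 libraries that edgeR's exact test then compares. That test can therefore pick out only genes that exceed the general spread, and a gene it does not call is not shown to be equal. With that spread, edgeR's exact test found 0 of the 4 members (adjusted p of 1 for each) and 4 of 508 genes (0.787%). Unadjusted, its exact p was 0.155 for Mir29b-1, 0.333 for Mir29c, 0.431 for Mir29a and 0.795 for Mir29b-2, and 0 members and 25 genes lay below 0.05. The median absolute log2 ratio over the detected genes was 0.35. A larger one than that of Mir29b-1 was held by 41 detected genes (10.1%), than that of Mir29c by 97 (23.9%), of Mir29a by 132 (32.5%) and of Mir29b-2 by 303 (74.6%). Each member's difference was thus exceeded by that of at least 41 detected genes.

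**Figure D5:**
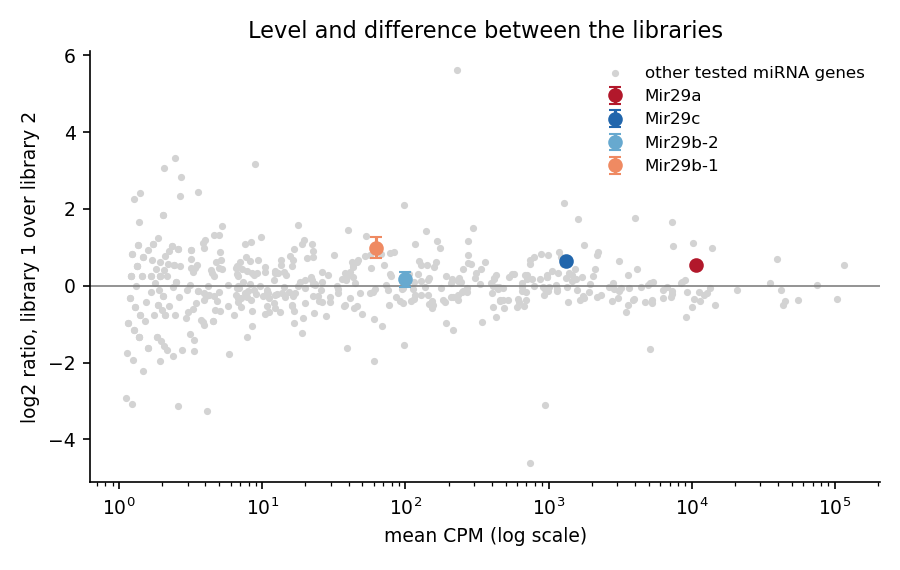
Log2 ratio of library 1 over library 2 against mean CPM on a log scale for the 508 tested genes, with the miR-29 genes in colour and their exact 95% intervals of counting error as bars. All 4 lie above 0, at 0.53 (Mir29a), 0.65 (Mir29c), 0.17 (Mir29b-2) and 0.99 (Mir29b-1), within the cloud of other genes.

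The genes next to each member in the ranking by mean level are given as a description. Mir330 (11272 ± 801 CPM) and Mir99a (10352 ± 1705 CPM) ranked directly above and below Mir29a. Mir341 and Mir409 did so for Mir29c, Mir669o and Mir3068 for Mir29b-2, and Mir148b and Mir7-1 for Mir29b-1. In all 8 cases the values of the neighbour overlapped those of the member. The neighbours were picked by mean level, which makes such overlap likely beforehand.

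The genes with the most similar values were found by Euclidean distance over log2(CPM + 1) in the 2 libraries, where a smaller distance is more alike. For Mir29a they were Mir191 (0.409), the neuronal Mir128-1 (0.468) and Mir330 (0.499), and for Mir29c Mir222 (0.101), Mir668 (0.193) and Mir154 (0.263). For Mir29b-2 they were Mir669o (0.139), Mir483 (0.183) and the hypoxia-induced Mir210 (0.204). For Mir29b-1 they were Mir24-2 (0.213), Mir148b (0.219), a regulator of DNA methyltransferase transcripts, and Mir3059 (0.343). Mir24-2, at 71.6 and 41.1 CPM, shares with Mir29b-1 the presence of its mature sequence at another locus. With 2 libraries, likeness rests mostly on the level.

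Other miRNA genes described as acting on DNA methyltransferases or collagens, 6 in number, were all detected and together held 0.670% and 0.686% of the sense-strand reads, below the miR-29 share in both libraries. By the binomial test 5 were higher in library 1 and 1 in library 2, against 25.2% and 23.2% of all tested genes. In either direction 48.4% of all tested genes differed, 83.9% of those at or above Mir29b-1 and 21.7% of those below it. The list has genes on both sides of that level. The highest was the smooth muscle miRNA Mir143 (6265 ± 373 CPM), followed by Mir101b (274 ± 148 CPM). The median log2(CPM + 1) of this list was 6.48, against 8.50 for the 4 miR-29 genes and 4.93 for all tested genes.

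The 12 other genes known to rise in the maturing brain were all detected as well and held 22.0% and 15% of the reads, with a median log2(CPM + 1) of 11.27. By the binomial test 8 were higher in library 1 and 2 in library 2, against 25.2% and 23.2% of all tested genes. Of the tested genes at or above the level of Mir29b-1, 83.9% differed in either direction, and of those below it 21.7%. The list has genes on both sides of that level. By value 9 of the 12 were higher in library 1, as were 252 of the 508 tested genes. The median log2 ratio of the 12 was 0.40, against 0.59 for the miR-29 genes and -0.00 for all tested genes. The highest were Mir139 (115590 ± 30882 CPM, log2 ratio 0.55) and the activity-induced Mir132 (39333 ± 12985 CPM, log2 ratio 0.69). Mir29a, with a log2 ratio of 0.53, thus had nearly the same ratio as Mir139. With edgeR's exact test none of the 12 differed.

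The 10 other miRNA genes associated with astrocytes held 3.65% and 3.84% of the reads, with a median log2(CPM + 1) of 9.09. By the binomial test 7 were higher in library 1 and 2 in library 2, against 25.2% and 23.2% of all tested genes. In either direction 83.9% of genes at or above Mir29b-1 and 21.7% of those below it differed. The list has genes on both sides of that level. By value 8 of the 10 were higher in library 1, the direction of the miR-29 genes, as were 252 of the 508 tested genes. The median log2 ratio of the list was 0.94, against -0.00 for all tested genes. The highest genes, Mir23b (20652 ± 1176 CPM) and Mir23a (9101 ± 3556 CPM), were the 2 with negative log2 ratios, -0.12 and -0.82. By edgeR's exact test 1 of the 10 differed, Mir26a-2, named for that reason after its values were seen, at 450 and 9.22 CPM. Red blood cell miRNAs had the widest fold difference in summed share among the lists, 0.0134% in library 1 and 0.155% in library 2. Mir451a was most of that sum in library 2, at 1419 of 1549 CPM, but not in library 1, at 58.3 of 134 CPM. Mir486, at 51.0 and 34.7 CPM, was higher in library 1. The part of red blood cell RNA in the lower miR-29 share of library 2 was not tested.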

How the data were processed

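MicroRNA-seq of RNA below 30 nucleotides was analysed in 2 libraries of 1 group. The authors deposited whole-number read counts per miRNA gene, not normalized, on mm10 with GENCODE M21, per the labels and file descriptions. For the aligner and adapter trimming, the sources used here name none. Each deposited table has 3 count columns and 4 tally rows, the layout of STAR's gene counts. The stranded column with the larger total was taken as sense. Tally rows entered neither library sizes nor tests. They held 19.6% and 18.9% of reads as unmapped, 41.7% and 41.1% as mapping to several places, 5.03% and 4.94% as outside genes, and 0 and 1 ambiguous reads. mm10 is the C57BL/6J sequence, so CAST/EiJ reads that differ from it may be lost. Reads carry no molecular identifiers in these counts, so intervals cover counting error only.

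CPM used the sense-strand totals, and log2 values a pseudocount of 1 CPM where stated. Genes with 10 or more reads in total were tested by exact binomial tests with Benjamini-Hochberg adjustment at 0.05. The binomial test was tested on simulated data. Dispersion and the exact test came from edgeR 4.0.16 in R 4.3.3 (TMM factors), the latter with the spread of these 2 libraries, so it is not a replicated test of groups. Other steps used Python 3.11.15, scipy 1.17.1, Biopython 1.88 and ViennaRNA 2.7.2. Alternatives were TMM and DESeq2 1.42.0 size factors, other denominators, strand column, count minimums, pseudocounts, pair definitions and each library left out. Sequences are from RefSeq (GRCm38.p6) and GENCODE M21. The genes named are the 4 members, the rank neighbours and 3 nearest genes of each, the 2 highest of each list of related miRNAs and the Mir24 pairs. Mir26a-2, Mir142b, red blood cell genes and the Mir9 and Mir124a copies were named after their values were seen. So were the pairs of Mir3070, Mir450, Mir92 and Mir16 copies. The members, lists and tests were chosen with earlier results of these data known. Isoforms and parental alleles were not analysed here.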

Additional observations from a re-analysis of the deposited data

Results flagged for a closer look

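Reads mapped to several places lie outside the gene counts and were far above the limit that a count of 0 allows, at 41.7% of library 1 and 41.1% of library 2. The miR-29b-3p sequence is among those that 2 hairpins share, and its amount in this tally is not known.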

How the results depend on the processing

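No paired analysis was possible because the series holds 1 group. The direction of all 4 log2 ratios held under every alternative, 40 values when each alternative is counted once per gene. The ranges were 0.47 to 0.57 for Mir29a, 0.93 to 1.04 for Mir29b-1, 0.11 to 0.21 for Mir29b-2 and 0.59 to 0.7 for Mir29c. The count minimums could not change a ratio, and the column that ignores strand held the same reads for these genes. Another denominator or scaling shifts all 4 ratios by a common amount, and 1 CPM added cannot change a sign. The edgeR ratios repeated those with TMM, so the 40 values are not separate checks. With edgeR's exact test in place of the binomial test, genes that differed fell from 246 to 4 and members from 3 to 0, since it adds the spread between the libraries. Under the other alternatives of test and scaling 3 members differed. The family's mean share of 1.21% was 0.414% of all reads and 1.72% without the 3 most abundant genes in the denominator. It was 0.986% to 1.43% with a library left out. Of 24 alternatives for the levels that keep both libraries, 8 moved by more than 1 SD, all from another denominator. With a library left out, the ratio of Mir29a over Mir29b-1 was 151 to 209, Mir29c over Mir29b-2 10.9 to 15.3, Mir29a over Mir29c 7.81 to 8.52, Mir29b-1 over Mir29b-2 0.446 to 0.791 and chromosome 6 over chromosome 1 cluster 7.38 to 7.84. The gene with a shared mature sequence was lower in 82 of 96 pairs within 50 kb. With a shared stretch of 20 bases as the definition it was lower in 86 of 162 (53.1%, median log2 ratio 0.57 against 3.99). That setting also let in genes without a RefSeq mature sequence. The Mir29c and Mir29b-2 pair dropped out, since Mir29c shares 22 bases with Mir29b-1. Depth limits the Mir29b genes most, with 190 to 426 reads a library.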
